A study of Mus musculus with 14 samples.

Results

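Carbonic anhydrases were examined as 6 genes, Car2, Car4, Car9, Car12, Car13 and Car14, out of the 16 carbonic anhydrase genes and 24054 genes in the expression tables of 14 mouse libraries. The members were picked by name because of their levels across the 6 groups of the study, so their own values are given as a description and without p-values. The study asked how Foxa2, a forkhead transcription factor needed to form endoderm, selects its binding sites and when chromatin opens there. It measured binding, chromatin and gene expression, and only expression is used here. In the d0con and d3con groups (2 and 3 libraries) the stem cells carried Foxa2-Venus-KO on 1 allele, where the coding region of Foxa2 is replaced by a nuclear Venus reporter, and in the d0ko and d3ko groups (2 and 3 libraries) both alleles were Foxa2-Venus-KO. The con libraries come from clones C59 and C63 and the ko libraries from clones C9 and C17, so each genotype rests on 2 clones, with replicate 2 the only library of C63 or C17 on each day. Day 0 cells had been kept on mitomycin-treated red fluorescent mouse fibroblasts without LIF and were sorted as Cherry-negative. Day 3 cells had spent 3 days on feeder cells that secrete Wnt3a, in medium with 12 ng/ml Activin A, and were sorted as Venus-positive. In both genotypes Venus therefore marks cells with an active Foxa2 locus. The d2-FVFn and d2-FVFp groups (2 libraries each) come from 1 other stem cell line, whose parent carries a Sox17-Cherry reporter on both alleles. A lentiviral tetracycline-responsive promoter drives a Foxa2-Venus fusion in that line, and the cells were grown in LIF and serum without feeders. All cells of both d2 groups received 40 ng/ml doxycycline, as labelled, for 48 h and were then sorted as Venus-negative or Venus-positive.

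Carbonic anhydrases are zinc enzymes that interconvert carbon dioxide and water with bicarbonate and a proton. Car2 and Car13 work in the cytosol. Car4 is held on the outer face of the plasma membrane by a lipid anchor, and Car9, Car12 and Car14 are transmembrane proteins with the catalytic domain outside the cell. The family is known for its part in pH balance, ion transport and gas exchange, and Car9 and Car12 are known as genes that respond to low oxygen.

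On the mouse assembly GRCm38, Car13 (chr3:14641727-14663002), Car1, Car3 and Car2 (chr3:14886269-14900770) lie in this order in a cluster of 259 kb. The other members stand alone, Car14 at chr3:95897768-95905117, Car4 at chr11:84957754-84966054, Car9 at chr4:43507026-43513729 and Car12 at chr9:66712296-66766845. Car14 overlaps Aph1a, and Car9 overlaps Arhgef39 and Tpm2, so reads from shared stretches cannot be assigned with certainty. Promoter sequences of RefSeq (250 bases before to 50 bases after the start, GRCm38.p6) were at hand for 4 of the 6 members, Car4, Car9, Car12 and Car14, and not for Car2 and Car13. They were searched on both strands for the forkhead core TGTTTAC, the kind of site that Foxa proteins bind, and for the core of hypoxia response elements, ACGTG or GCGTG. None of the 4 held the forkhead core, which 3.66% of 32544 mouse promoters hold. The hypoxia core was found in 3 of the 4, against 44% of all promoters, in each case as ACGTG on the opposite strand, which reads CACGT. The match begins at base 3 of the transcript in Car4, 18 bases before the start in Car9 and 7 bases before it in Car14. The promoters of Car4 and Car9 lie at the gene starts given above. Those of Car12 (chr9:66713436-66713735) and Car14 (chr3:95904636-95904935) lie wholly inside the gene spans given above. The Car12 and Car14 results therefore refer to starts within those spans, and sequence at the outer ends of these genes was not searched. A match describes the letters only. The promoters of Car4, Car9 and Car14 are shown, and capitals mark the match. They were chosen because these 3 genes include the members with the highest and the lowest level at day 3 in d3con. The 3 genes also include those with the largest differences between day 0 and day 3.
Car4 (chr11:84957504-84957803, plus strand): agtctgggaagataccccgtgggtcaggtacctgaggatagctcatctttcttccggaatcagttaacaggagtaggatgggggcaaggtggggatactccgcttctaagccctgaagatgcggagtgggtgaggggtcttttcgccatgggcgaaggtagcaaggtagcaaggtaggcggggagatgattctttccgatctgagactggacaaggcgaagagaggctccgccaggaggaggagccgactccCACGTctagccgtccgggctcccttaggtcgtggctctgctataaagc
Car9 (chr4:43506776-43507075, plus strand): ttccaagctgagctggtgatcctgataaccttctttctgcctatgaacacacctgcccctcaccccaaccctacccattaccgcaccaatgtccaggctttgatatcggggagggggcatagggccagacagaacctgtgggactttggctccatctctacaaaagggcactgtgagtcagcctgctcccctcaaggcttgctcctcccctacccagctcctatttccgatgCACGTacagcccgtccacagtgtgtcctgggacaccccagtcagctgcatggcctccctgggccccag
Car14 (chr3:95904636-95904935, minus strand): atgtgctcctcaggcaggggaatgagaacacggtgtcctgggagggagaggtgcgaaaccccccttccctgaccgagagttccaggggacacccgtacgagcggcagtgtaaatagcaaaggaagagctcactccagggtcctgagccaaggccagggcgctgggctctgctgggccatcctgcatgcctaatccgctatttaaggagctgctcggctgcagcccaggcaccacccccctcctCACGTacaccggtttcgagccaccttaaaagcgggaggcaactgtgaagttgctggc

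Libraries held between 14142788 and 27278237 expected counts, the reads that RSEM assigned to genes. Foxa2 itself was at 34.8, 54.5 and 58.6 TPM (a level scaled for gene length and to the same total in every library) in d3con and at 0.11 to 0.19 TPM in d3ko, and it was at 2.01 and 2.99 TPM in d2-FVFn against 160 and 169 TPM in d2-FVFp. Marker genes showed that the d3ko libraries are unlike each other. The summed level of 6 pluripotency markers was 2668 TPM in d3ko replicate 2 but 15430 and 17360 TPM in replicates 1 and 3, where day 0 libraries had 13790 to 15660 TPM and d3con libraries 562 to 985 TPM. Dppa5a made up most of this sum in d0ko and d3ko, with means of 13050 and 10540 TPM. Pou5f1 had means of 1396 TPM in d0ko and 656 TPM in d3ko, and Zfp42 of 572 and 250 TPM. Nanog and Sox2 were lower in d3ko as well, and Klf4 was higher (27.5 and 35.7 TPM). The summed level of 6 endoderm markers ranged from 760 to 1278 TPM in d3con and from 29 to 141 TPM in d3ko, lowest in replicate 3. Cer1 had the highest mean of them in d3con (546 TPM) and Gata4 in d3ko (43.0 TPM), and all 6 had lower means in d3ko. The sum of 7 fibroblast markers, which bears on feeder cells, ranged from 11.8 to 14.2 TPM in d0con, 37.4 to 135 TPM in d0ko, 52.7 to 304 TPM in d3con, 117 to 366 TPM in d3ko and 2.73 to 3.95 TPM in the doxycycline libraries. Col1a1 was its largest part, with means of 37.3 TPM in d0ko and 165 TPM in d3ko. Col1a2, Col3a1, Thy1 and Lum were also higher in d3ko than in d0ko. Dcn (10.9 and 1.98 TPM) and Postn (5.23 and 3.18 TPM) were lower in d3ko, so the 7 markers do not move as one. In bulk RNA a lower level can mean fewer cells of a type or less RNA per cell, and these cannot be told apart. The labels do not say that replicates are separate cultures, so p-values measure only the spread between these libraries.

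Car4 covered the widest range of the 6 genes. Its level at day 0 was 10.42 and 10.02 TPM in d0con and 14.4 and 13.4 TPM in d0ko. At day 3 it was 2113, 805 and 2154 TPM in d3con. This placed Car4 between rank 42 and rank 181 of all genes by TPM in the d3con libraries, against rank 7150 and 7197 in d0con. In d3ko its level was 405, 492 and 48.1 TPM, and every d3ko library lay below every d3con library and above every day 0 library. With doxycycline it was 88.5 and 149 TPM in d2-FVFn and 20.1 and 27.8 TPM in d2-FVFp, without overlap. The order of the group means was d0con, d0ko, d2-FVFp, d2-FVFn, d3ko and d3con, and only d2-FVFn and d3ko, neighbours in that order, overlapped.

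**Figure D1:**
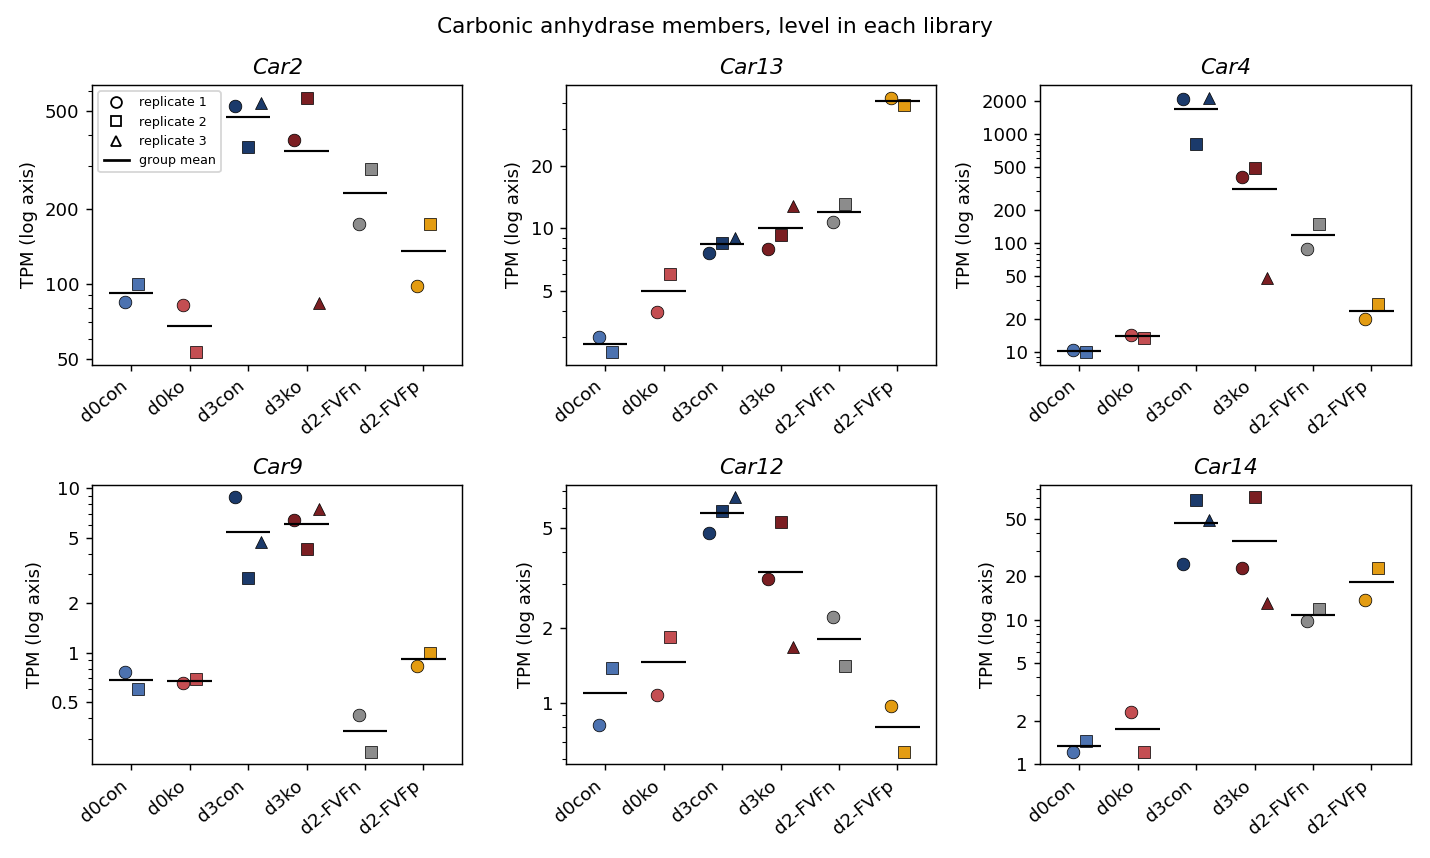
Level of each of the 6 genes in TPM on a log axis (y) in the 14 libraries, by group (x). Symbols stand for replicates and bars for group means, and the d3ko library with the lowest Car2, Car4, Car12 and Car14 is replicate 3 in each of those 4 panels.

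Car2, the widespread and highly active cytosolic enzyme, had the highest group mean of the family in every group except d3con, although Car4 exceeded it in d3ko replicate 1. Its level was 84.4 and 99.7 TPM in d0con, 81.9 and 53.3 TPM in d0ko, and 520, 357 and 537 TPM in d3con. In d3ko it was 380, 564 and 83.9 TPM, so replicate 3 lay at the day 0 level while the other two lay in or near the d3con range. Car2 was at 175.1 and 291 TPM in d2-FVFn and at 97.8 and 174.5 TPM in d2-FVFp, and the higher d2-FVFp library was close to the lower d2-FVFn library.

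Car13, the other cytosolic member at the other end of the chromosome 3 cluster from Car2, had another order of groups. It was at 3.01 and 2.55 TPM in d0con, 3.97 and 6.05 TPM in d0ko, 7.64, 8.45 and 9.01 TPM in d3con and 7.99, 9.25 and 12.7 TPM in d3ko. With doxycycline it was at 10.7 and 13.1 TPM in d2-FVFn and at 42.4 and 38.9 TPM in d2-FVFp. Car13 was thus the only member with its highest group mean in d2-FVFp, at 40.6 ± 2.45 TPM (SD, n = 2), and both d2-FVFp libraries lay above the other 12.

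Car14 was low at day 0, with 22 to 52 counts per library, and well expressed at day 3. It was at 1.22 and 1.45 TPM in d0con, 2.30 and 1.22 TPM in d0ko, 24.2, 67.6 and 48.8 TPM in d3con and 22.7, 70.4 and 13.0 TPM in d3ko. The genotypes overlapped at day 3, and in both replicate 2 was highest. The sum of 6 mesoderm markers was also highest there, at 169 TPM in d3con and 309 TPM in d3ko. The other day 3 libraries had sums from 20.6 to 67.6 TPM, and a link to Car14 was not tested. After doxycycline Car14 was at 9.81 and 11.8 TPM in d2-FVFn and at 13.7 and 22.8 TPM in d2-FVFp, without overlap.

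Car9 was the rarest member at day 0, at 0.76 and 0.60 TPM in d0con and 0.65 and 0.69 TPM in d0ko, from 12 to 18 counts per library. At day 3 it was at 8.80, 2.83 and 4.73 TPM in d3con and at 6.42, 4.29 and 7.51 TPM in d3ko. All day 3 libraries lay above all others, and the genotypes overlapped. The fibroblast marker sum, with Col1a1 as its largest part, had almost the same order over the 6 day 3 libraries. It was 52.7 TPM in d3con replicate 2, the lowest for Car9. It was 304 and 366 TPM in d3con replicate 1 and d3ko replicate 3, the highest for Car9. The part of feeder RNA in the Car9 values was not tested. In d0ko replicate 2 the sum was 135 TPM and Car9 was at 0.69 TPM. Day 0 cells were kept on other feeder cells, so that library does not show what day 3 feeders add. In the doxycycline line, grown without feeders, Car9 was at 0.42 and 0.25 TPM in d2-FVFn and at 0.83 and 1 TPM in d2-FVFp, from 5 to 17 counts, too few to pass the count filter.

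Car12 was low throughout. It was at 0.82 and 1.38 TPM in d0con, 1.08 and 1.84 TPM in d0ko, 4.78, 5.87 and 6.63 TPM in d3con and 3.12, 5.27 and 1.67 TPM in d3ko. Within d3ko, replicate 3 lay inside the day 0 range. After doxycycline Car12 was at 2.21 and 1.41 TPM in d2-FVFn and at 0.97 and 0.64 TPM in d2-FVFp, without overlap.

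The first comparison asked how the genes differ between stem cells and Venus-positive cells after 3 days of differentiation. In the con genotype all 6 members were higher at day 3. The mean TPM was 165 times as high for Car4, 35.1 times for Car14, 8.02 times for Car9, 5.24 times for Car12, 5.12 times for Car2 and 3.01 times for Car13. In the edgeR quasi-likelihood fit the log2 fold change was 7.17 (SE 1.07) for Car4, 4.91 (SE 0.84) for Car14, 2.81 (SE 0.58) for Car9, 2.18 (SE 0.51) for Car12, 2.15 (SE 0.65) for Car2 and 1.38 (SE 0.30) for Car13. All 6 were called higher (adjusted p under 0.05 and over 2-fold), beside 35.2% of 13899 tested genes called and 20.6% called higher. This comparison is among those that chose the genes, so the count is a description. The libraries of d3con lay above those of d0con without overlap for all 6 members, as they did for 45.5% of tested genes. The median log2 fold change was 2.49 over the members and 0.07 over all tested genes. Leaving out d0con replicate 1 ended the calls of Car2 (2.03) and Car12 (1.84), and leaving out d0con replicate 2 those of Car2 (2.28) and Car13 (1.27).

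In the ko genotype 4 of 6 members were called higher at day 3, Car4 (log2 fold change 4.33), Car14 (4.13), Car9 (3.01) and Car2 (2.16), beside 17.3% of tested genes called and 11.6% called higher. Car12, at 1.03, and Car13, at 0.83, did not pass. The libraries of d3ko lay above those of d0ko without overlap for 5 members, Car12 being the exception, and for 36.6% of tested genes. The call of Car2 was lost when the shared clone of replicates 1 and 2 was fitted as a block, which left 3 members called (Car2 at 2.09), and likewise without d3ko replicate 1 (2.06) or 2 (1.63). Without d3ko replicate 3 Car12 was called too, at 1.36. Leaving out d0ko replicate 1 or 2 left 0 of 6 called, while the calls over all genes went from 2408 to 667 or 974, and all 6 log2 fold changes stayed above 0. Both genotypes are matched to their own day 0 libraries. The difference between the changes of the genotypes (the interaction of genotype and day) was -2.84 (SE 1.12) on the log2 scale for Car4, -1.15 for Car12, -0.78 for Car14, -0.55 for Car13, 0.20 for Car9 and 0.01 for Car2. None of the 6 was called, beside 0% of all genes with edgeR, of which 1840 had an unadjusted p under 0.05, and DESeq2 called 565 genes (4.07%), none of them a member.

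**Figure D2:**
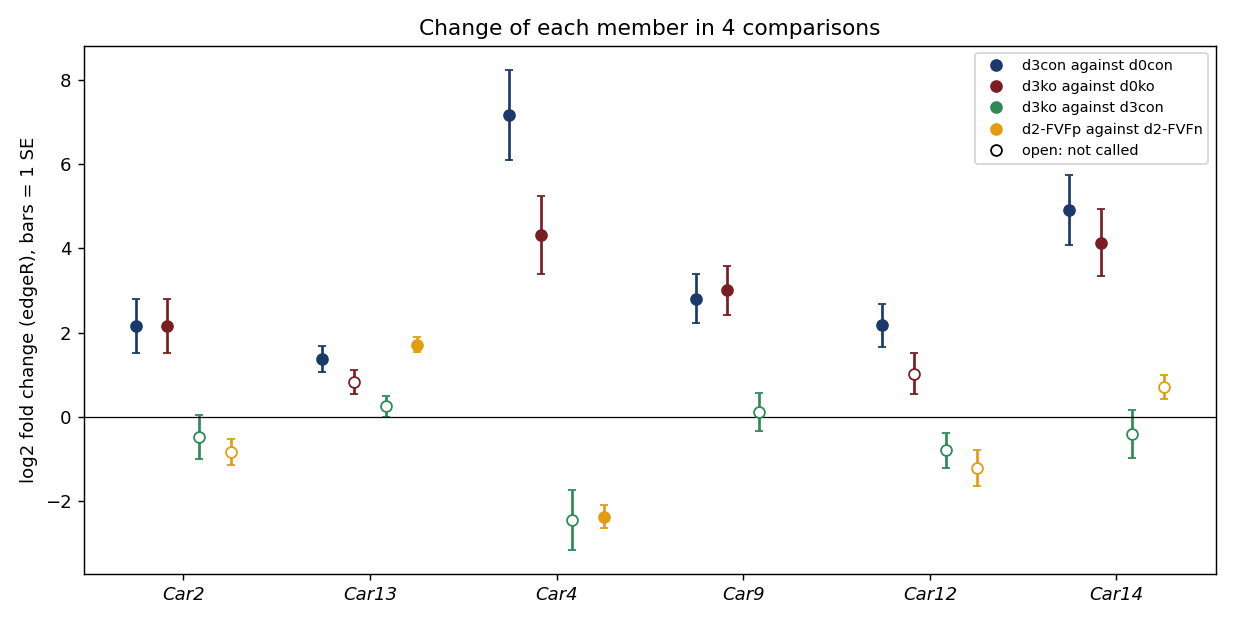
Log2 fold change (y, edgeR, bars of 1 SE) of each member (x) in 4 comparisons. Filled points were called; Car4 is at 7.17 for d3con against d0con and at -2.36 for d2-FVFp against d2-FVFn, and Car9 has no point for the doxycycline line because it was not tested there.

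The second comparison asked what the loss of Foxa2 does in Venus-positive day 3 cells. Car4 was lower in d3ko, at 315 ± 235 TPM (SD, n = 3) against 1691 ± 767 TPM (SD, n = 3) in d3con, with a log2 fold change of -2.44 (SE 0.70). The d3ko libraries lay below the d3con libraries without overlap, as did 12.3% of tested genes. The other differences were smaller, -0.79 (SE 0.42) for Car12, -0.47 (SE 0.53) for Car2, -0.40 (SE 0.57) for Car14, 0.25 (SE 0.25) for Car13 and 0.13 (SE 0.45) for Car9, with overlapping libraries for all 5. None of the 6 was called, beside 8.26% of tested genes, and their median log2 fold change was -0.44. Car4 was called by DESeq2 (which called 12.1% of tested genes), without the filter on low counts, and after leaving out d3con replicate 2, d3ko replicate 2 or d3ko replicate 3 (log2 fold change between -2.90 and -1.93 over all single libraries left out). Leaving out d3ko replicate 2 also called Car12 at -1.25 and Car14 at -1.37.

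Among the d3ko libraries Car2, Car4, Car12 and Car14 shared an order, highest in replicate 2 (clone C17), then replicate 1, then replicate 3 (both clone C9). The pluripotency marker sum, mostly Dppa5a, ran the other way, from 2668 TPM in replicate 2 to 15430 TPM in replicate 1 and 17360 TPM in replicate 3. The endoderm marker sum followed the same order as the 4 genes, at 141, 78.4 and 29.0 TPM. The mesoderm marker sum was also highest in replicate 2, at 309 TPM, but was lower in replicate 1 (29.1 TPM) than in replicate 3 (67.6 TPM). Their part in the lower Car4 of d3ko was not tested. Without d3ko replicate 3 the log2 fold change of Car4 was -1.93 and it was called, whereas without replicate 3 of both d3con and d3ko, an alternative chosen after seeing the data, it was -1.76 and was not called.

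At day 0, where Foxa2 had 2 or 3 counts in each library, the genotypes differed little in the members. The log2 fold changes of d0ko against d0con ran from -0.48 for Car2 to 0.80 for Car13, and none was called. Both d0ko libraries lay above both d0con libraries for Car4 and Car13, as for 28.9% of tested genes, and below them for Car2, as for 14.9%. In this comparison edgeR called 0 of 13899 genes (0%), with 195 at an unadjusted p under 0.05, and DESeq2 called 1 (0.00719%).

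The third comparison asked what doxycycline-induced Foxa2 does in stem cells that were not differentiated. Of the 5 members tested, Car13 was called higher in d2-FVFp, with a log2 fold change of 1.72 (SE 0.18), and Car4 was called lower, at -2.36 (SE 0.28). This stands beside 8.43% of 12943 tested genes called, 6.96% higher and 1.47% lower. In mean TPM Car13 was 3.41 times as high in d2-FVFp, and Car4 was 4.97 times as high in d2-FVFn. Car12 at -1.21 (SE 0.43), Car2 at -0.82 and Car14 at 0.71 did not pass. The pairs of libraries did not overlap for any of the 6 members, with Car9, Car13 and Car14 higher in d2-FVFp, as 35.1% of tested genes were, and Car2, Car4 and Car12 lower, as 27.4% were. With the replicate number as a block Car12 was called as well (-1.20). Without d2-FVFp replicate 1 Car14 was called, at 1.04, and without d2-FVFp replicate 2 Car2, at -1.28. The summed pluripotency markers were 6385 and 7908 TPM in d2-FVFn and 4232 and 5758 TPM in d2-FVFp. Dppa5a made up most of this sum, with means of 4811 TPM in d2-FVFn and 3189 TPM in d2-FVFp. Pou5f1, Nanog, Sox2 and Zfp42 also had lower means in d2-FVFp. Klf4 went the other way and was called higher in d2-FVFp (log2 fold change 1.29, edgeR adjusted p = 0.0262). The fibroblast markers were at or near 0 in both (2.73 to 3.95 TPM in sum), with 6 of 7 under 1 TPM on average.

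The level of Car4 thus lay lower in the Foxa2-deficient day 3 libraries than in their controls and lower in the Foxa2-induced stem cells than in the Venus-negative cells. The pair of comparisons shares no library. The same arrangement, without overlap in either comparison, was present in 179 of the 12590 genes tested in both (1.42%), whereas 821 genes (6.52%) were higher in every library of d3con and of d2-FVFp than in every library of the group compared with them.

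The make-up of the family changed with day. The summed level of all 16 carbonic anhydrase genes was 115 ± 9.64 TPM (SD, n = 2) in d0con and 99.8 ± 18.3 TPM (SD, n = 2) in d0ko, 2240 ± 850 TPM (SD, n = 3) in d3con and 729 ± 501 TPM (SD, n = 3) in d3ko. It was 408 ± 130 TPM (SD, n = 2) in d2-FVFn and 241 ± 66.8 TPM (SD, n = 2) in d2-FVFp. The 6 members held between 87.9% and 99.6% of it in every library. Car2 held 79.9% ± 2.76 (SD, n = 2) of the sum in d0con and 22.4% ± 5.19 (SD, n = 3) in d3con, and the share of Car4 went from 8.93% ± 0.99 to 73.4% ± 8.25. The membrane-bound members Car4, Car9, Car12 and Car14 together held 11.04% and 12.2% in the d0con libraries and 69.9% to 79.9% in the d3con libraries. In d3ko the share of Car2 was nearly the same in all 3 libraries, 45.4% to 48.4%, although its level differed between 83.9 and 564 TPM, and Car4 held 26.3% to 48.3%.

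The ratio of Car4 to Car2 in TPM does not depend on library scaling. It was 0.10 and 0.12 in d0con, 0.18 and 0.25 in d0ko, 2.25 to 4.06 in d3con and 0.57 to 1.07 in d3ko. The d3con and d3ko libraries did not overlap, with or without d3ko replicate 3. In d2-FVFn the ratio was 0.51 in both libraries, and in d2-FVFp it was 0.16 and 0.21. There Car13 held 13.5% and 21.8% of the family sum, against 2.62% and 3.40% in d2-FVFn.

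**Figure D3:**
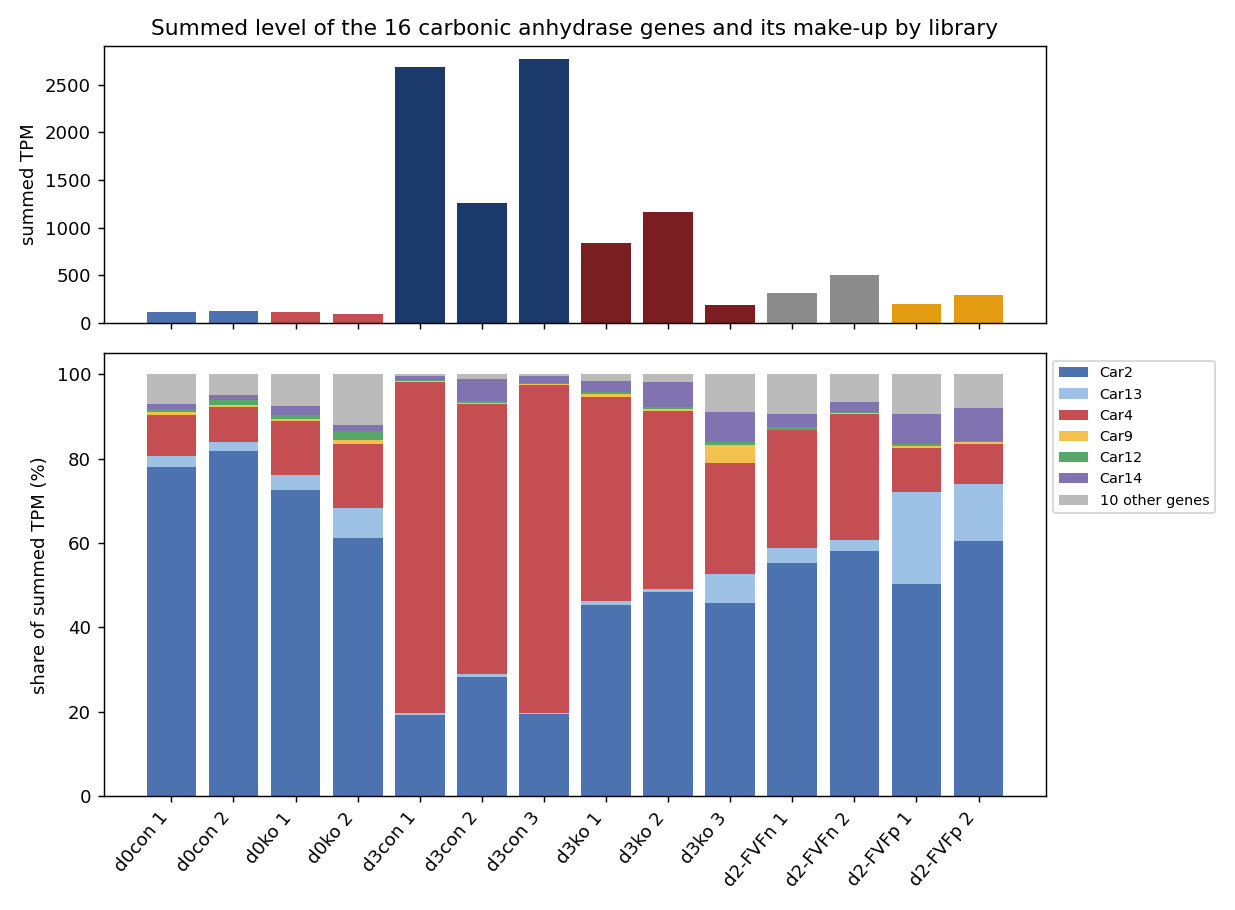
Summed TPM of the 16 carbonic anhydrase genes (upper panel) and the percent of it held by each member and by the 10 other genes (lower panel) in each library (x). Car4 holds 63.9% to 78.5% in the d3con libraries and 8.23% to 9.63% in the d0con libraries.

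The 10 other carbonic anhydrase genes had group means of at most 19.0 TPM, reached by Car3 in d2-FVFn. On average Car3 lay above Car9, Car12, Car13 and Car14 in that group, and Car11 lay above Car9 and Car12 in d3con. When day 0 and day 3 were fitted together, 6 of them passed the count filter, and none was called in any comparison with edgeR or DESeq2, although Car11 in d3con against d0con and Car5a in d3ko against d0ko and in d3ko against d3con had an unadjusted p under 0.05. Car11, a related protein without enzyme activity, was at 3.04 ± 0.50 TPM (SD, n = 2) in d0con and 6.82 ± 0.27 TPM (SD, n = 3) in d3con, with a log2 fold change of 0.96 with an SE of 0.33 (edgeR adjusted p = 0.035), just under 2-fold. The mitochondrial Car5a and Car5b, the cytosolic Car3 and Car7 and the inactive Car8 had group means of at most 4.09 TPM in these 10 libraries. Of the 5 tested in the doxycycline line, Car3 fell, from 19.0 ± 5.35 TPM (SD, n = 2) in d2-FVFn to 6.91 ± 3.45 TPM (SD, n = 2) in d2-FVFp, with a log2 fold change of -1.50 with an SE of 0.37 (edgeR adjusted p = 0.0356). Car3 lies between Car13 and Car2 in the chromosome 3 cluster, so in d2-FVFp a gene called higher and a gene called lower share the cluster. Car1, the remaining gene of the cluster, had 0 counts in 13 libraries and 2 counts in 1. The secreted Car6 was at 4.59 TPM in d2-FVFn and 3.43 TPM in d2-FVFp on average, and Car10 and Car15 had at most 3 counts in any library, where 3 counts correspond to 0.11 to 0.212 CPM (counts scaled to a common library total). Their presence below that limit could not be judged at this depth.

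The neighbouring steps of the reaction were followed with 3 further lists of genes. For reading their counts, edgeR called 20.6% of all tested genes higher and 14.6% lower in d3con against d0con, 11.6% and 5.72% in d3ko against d0ko, and 4.75% and 3.51% in d3ko against d3con. The median log2 fold change over all tested genes was between 0.01 and 0.07 in these comparisons and in the doxycycline line. In d0ko against d0con no gene of the lists was called with edgeR or DESeq2, and in the interaction of genotype and day none was called with edgeR, while DESeq2 called Emb and Slc16a1 lower. Bicarbonate transporters move the product of the reaction across membranes. Of 14 listed genes 9 were tested, and in d3con against d0con 3 rose (Slc4a3, Slc4a4 and Slc4a7) and 5 fell (Slc26a6, Slc26a9, Slc4a1, Slc4a5 and Slc4a8), with a median log2 fold change of -1.24. Slc4a7, a sodium-bicarbonate cotransporter, was the only riser with at least 5 TPM, at 22.0 ± 2.74 TPM (SD, n = 3) against 6.70 ± 1.14 TPM (SD, n = 2), a log2 fold change of 1.51 with an SE of 0.17 (edgeR adjusted p = 0.000334). In d3ko against d0ko 2 rose and 2 fell, among them Slc4a7 at 1.80 (edgeR adjusted p = 0.000683) and the anion exchanger Slc4a2, which fell by 1.30 on the log2 scale (edgeR adjusted p = 0.0026). In d3ko against d3con 2 of the 9 were higher in d3ko, Slc4a1 and Slc4a5, both below 5 TPM on average, whereas DESeq2 called 4 (Slc26a6 and Slc4a8 in addition) and the fit with the replicate block 1 (Slc4a5). In d2-FVFp against d2-FVFn 1 of 8 tested genes rose, Slc4a9, also below 5 TPM, and DESeq2 called Slc4a5 lower in addition.

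Exporters of protons and lactate move acid to the outside of the cell, where the membrane-bound carbonic anhydrases work. Of 12 listed genes 7 were tested, and in d3con against d0con 3 rose and 1 fell, with a median log2 fold change of 0.86. Slc16a1, the monocarboxylate transporter that carries lactate with a proton, rose to 723 ± 325 TPM (SD, n = 3) from 62.5 ± 6.89 TPM (SD, n = 2), which is 3.33 on the log2 scale with an SE of 0.41 (edgeR adjusted p = 0.000433). Emb, a partner protein of such transporters, rose to 1768 ± 440 TPM (SD, n = 3) from 108 ± 23.5 TPM (SD, n = 2), which is 3.82 on the log2 scale with an SE of 0.61 (edgeR adjusted p = 0.00122). The sodium-proton exchanger Slc9a5 rose as well (2.11, edgeR adjusted p = 0.00519), and the proton channel Hvcn1 fell by 1.25 on the log2 scale (edgeR adjusted p = 0.0212). In d3ko against d3con the pair Slc16a1 and Emb was lower, and DESeq2 in addition called Hvcn1 higher (edgeR log2 fold change 1.07, not called). Slc16a1 was at 130 ± 34.5 TPM (SD, n = 3) in d3ko, a log2 fold change of -2.48 with an SE of 0.34 (edgeR adjusted p = 0.00922), and Emb was at 366 ± 303 TPM (SD, n = 3), a log2 fold change of -2.29 with an SE of 0.48 (edgeR adjusted p = 0.0216). In d3ko against d0ko edgeR called 1 of the 7, Slc9a5, which rose by 1.90 (edgeR adjusted p = 0.0146), and DESeq2 called Emb higher as well. None of the 7 exporters tested in the doxycycline line was called with edgeR or DESeq2, although 4 had an unadjusted p under 0.05 and Slc16a1 was higher by less than 2-fold (log2 fold change 0.64, edgeR adjusted p = 0.0136).

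Genes of the response to low oxygen were listed because Car9 and Car12 are known members of that response, and all 15 were tested. In d3con against d0con 6 rose and 1 fell, with a median log2 fold change of 1.23. Vegfa, a growth factor for blood vessels, rose by 3.75 (SE 0.33, edgeR adjusted p = 0.000164), Egln1, a prolyl hydroxylase that marks hypoxia-inducible factors for degradation, by 3.28 (SE 0.45, edgeR adjusted p = 0.000605), and the peptide hormone gene Adm by 2.62 (SE 0.95, edgeR adjusted p = 0.0425). Pdk1, a kinase that limits entry of pyruvate into the mitochondrion, fell by 1.14 on the log2 scale (edgeR adjusted p = 0.0196). In d3ko against d0ko 5 rose and none fell, with Vegfa at 2.86 (edgeR adjusted p = 0.000839), the collagen hydroxylase subunit P4ha1 at 2.17 (edgeR adjusted p = 0.000929) and Egln1 at 1.94 (edgeR adjusted p = 0.0101). In d3ko against d3con only Egln1 was called, lower in d3ko (log2 fold change -1.51, edgeR adjusted p = 0.0276), and the list median was -0.08. In d2-FVFp against d2-FVFn Vegfa alone rose with edgeR, by 1.48 (edgeR adjusted p = 0.0224), and DESeq2 also called Adm higher and Egln3 lower.

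**Figure D4:**
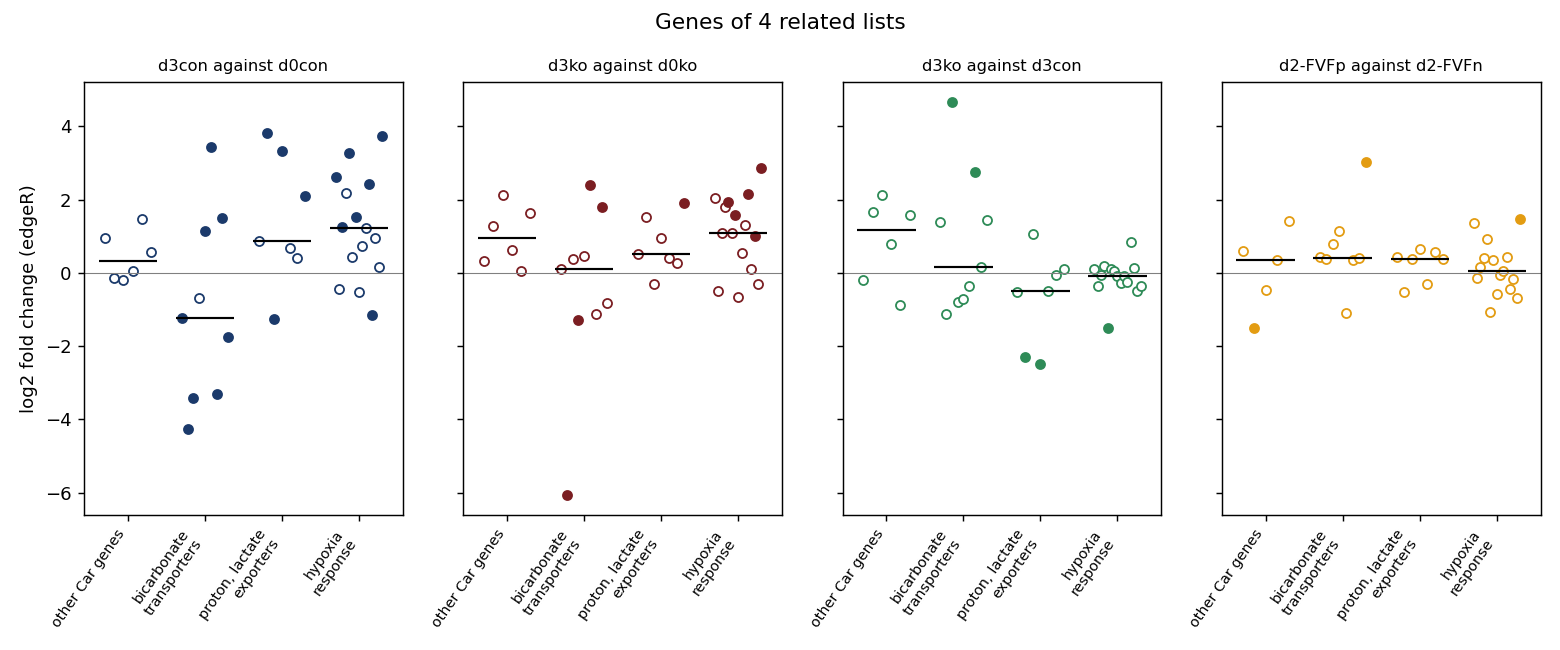
Log2 fold changes (y, edgeR) of tested genes of 4 lists (x) in 4 comparisons, 1 point per gene, filled where called, with the list median as a bar. In d3con against d0con 6 of 15 hypoxia response genes and 3 of 7 proton and lactate exporters were called higher, and in d3ko against d3con the 2 exporters called are lower.

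The genes most like each member were ranked by Pearson correlation of log2(TPM + 1) over the 14 libraries among 11101 genes with at least 5 TPM in some group. These values are descriptions, since the libraries share groups and thereby large differences. Car4 was closest to Mum1l1 (r = 0.975), Ldlrad3 (0.968) and Tmem206 (0.968), and Mum1l1 had a mean of 54.1 TPM in d3con, 19.4 TPM in d3ko and 1.53 TPM in d0con. Car14 was closest to Smarca2 (0.981), Scd2 (0.98) and Usp47 (0.98). Car2 was closest to Epm2aip1 (0.974), Pcbp4 (0.965) and Ubtd2 (0.948), and Car12 to Gpc2 (0.976), Echdc1 (0.958) and Glod4 (0.956). Car13 was closest to Golph3 (0.977), Slmap (0.972) and Pkn2 (0.97), all with their highest group mean in d2-FVFp. Car9 was closest to Mir692-2a and Mir692-2b (0.975 each, with equal values, so their reads cannot be told apart) and to Mmp13 (0.973), which encodes a collagenase. Mmp13 had means of 19.3 TPM in d3con and 28.7 TPM in d3ko and was listed at 0 in d2-FVFn.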

How the data were processed

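RNA of sorted mouse cells was made into cDNA with a low-input SMART-Seq kit and sequenced in 14 libraries. The authors aligned reads to mm10 with STAR and quantified each library with RSEM, and versions are not given in the sources used here. The deposited expected counts are estimated counts per gene, not scaled for depth, and the deposited TPM values were scaled by the authors for gene length and library size. Whether strand was used in counting is not given. Effective lengths show 75-base reads in the day 3 libraries numbered 1 and 50-base reads elsewhere.

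The members and gene lists were chosen with earlier results of these data known. Levels and shares come from the TPM values. Expected counts, 14142788 to 27278237 per library, were rounded and tested with edgeR 4.0.16 (R 4.3.3; TMM scaling, quasi-likelihood F test, at least 1 CPM in at least 2 libraries, Benjamini-Hochberg adjustment over all tested genes). The 10 day 0 and day 3 libraries shared one fit (13899 genes) and the 4 doxycycline libraries another (12943 genes). Calls needed an adjusted p under 0.05 and a change over 2-fold either way. Each SE was derived from F as the absolute log2 fold change over its square root. The fits were tested on simulated data with 200 genes changed 4-fold. For d3ko against d3con 72% of them were called, with 12 false calls. For d2-FVFp against d2-FVFn 91% were called, with 8 false calls. A 4-fold change between d3ko and d3con can therefore be missed. DESeq2 1.42.0 was one of the alternatives, with other scaling, filters, blocks and single libraries left out. Floors of 3 counts cover counting error only.

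Groups and replicate numbers come from the sample titles and clones from the deposited names. Replicates 1 and 2 of day 0 and day 3 share a clone within a genotype, which pairs them, and the correlations of their deviations were 0.03 and 0 in con and -0.03 and 0.07 in ko. Genes named are the 6 members, the other carbonic anhydrases, Foxa2, up to 3 called genes per list, direction and comparison with the largest change and a mean of at least 5 TPM in the higher group, and the 3 genes most correlated with each member. Called list genes below 5 TPM are named by symbol only. Single marker genes are named where they make up much of a marker sum or to show how markers of that sum differ. Protein sequences were not used here.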

Additional observations from a re-analysis of the deposited data

Results flagged for a closer look

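Car4 differed in opposite directions between cells with higher and lower Foxa2 in the 2 cell systems. The lower group was the knockout at day 3, and in the doxycycline line it was d2-FVFn, where Foxa2 was at 2.01 and 2.99 TPM. At day 3 every library with Foxa2 (d3con) lay above every library without it, with a log2 fold change of -2.44 for d3ko against d3con. In the doxycycline line every library with induced Foxa2 lay below every Venus-negative library, with a log2 fold change of -2.36 for d2-FVFp against d2-FVFn. The difference between the 2 systems, which also differ in medium, feeders, day and parent line, was not tested. Groups of 2 or 3 libraries are too small for a check of single outlying libraries.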

How the results depend on the processing

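Of 473 log2 fold changes of members recomputed under the alternatives, 458 moved by less than 1 SD between replicates and 15 by more, and no called value changed sign. All 84 shares of the family sum stayed within 1 SD when a library was left out. With 2 or 3 libraries in a group, dropping 1 cannot move their mean by 1 SD. The count of shares is therefore no check of how stable they are. The count of fold changes, set against an SD pooled over the groups compared, is a weak check for the same reason. For d3con against d0con the alternatives called 4 to 6 members, all higher, with 4 to 6 when a library was left out. For d3ko against d0ko leaving out a library gave 0 to 5, and other alternatives 3 or 4. For d3ko against d3con, where none of 6 was called, leaving out a library gave 0 to 3. Car4 alone (1 member) was called with DESeq2, without a filter on low counts, and, an alternative chosen after seeing the data, without both day 3 replicates numbered 2. In the doxycycline line 2 to 3 members were called with a library left out, and DESeq2 against a 2-fold change, also chosen after seeing the data, called 1, Car4. A replicate block gave 6 (d3con against d0con), 4 (d3ko against d0ko), 0 (d3ko against d3con, d0ko against d0con and the interaction) and 3 (doxycycline line, with Car12 added at 1497 calls over all genes against 1091). Same-numbered deviations correlated at 0.52, 0.29 and -0.02 in d3ko against d3con, 0.1 at day 0 and 0.27 in the doxycycline line. The labels give these samples a shared number and do not say whether they share a culture. The d3con and d3ko libraries numbered 1 (0.52) also share 75-base reads. In the doxycycline line the block also called Car8 and Slc4a4 higher and Slc4a5 lower, and Adm higher and Egln3 lower, as DESeq2 did for the last 3. The clone block changed no other call than Car2 in d3ko against d0ko. The number of all genes called in d3ko against d3con moved from 1148 to 1678 with DESeq2, 67 in a fit of only those groups, 1 without the 75-base libraries and 2249 without d3ko replicate 2, and for the interaction from 0 to 565 with DESeq2 and 1118 without d3ko replicate 2. The causes were not tested. Below 3 counts, Car1, Car10 and Car15 cannot be judged, and Car9 rests on 5 to 18 counts outside day 3.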
